A study of Mus musculus with 16 samples.

Results

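Among 16 RNA sequencing libraries of orthotopic colorectal tumours in mice, 8 came from MSI tumours, and these fell into 4 libraries rich in transcripts of the normal colon wall and 4 that were poorer in them. The 2 sets were chosen from the levels of colon epithelium and smooth muscle genes in these libraries, and they coincide with the number at the end of the library title: the 4 replicate 2 libraries are the colon-rich set, and the 4 replicate 1 libraries the colon-poor set. Each set holds 1 library of each treatment group, so the 8 libraries form 4 pairs. MC38 is a colon carcinoma line of C57BL/6 mice, studied here as an MSI (microsatellite instability) and a CIN (chromosomal instability) form, and C57BL/6 hosts received the cells directly in their descending colon. Bone marrow derived dendritic cells, exposed for 30 minutes to 2 µg of DNA with a lipid transfection reagent, entered the hosts by the intraperitoneal route on days 1, 6 and 12 before tumour collection on day 15. The 4 groups of MSI tumours received dendritic cells exposed to MSI micronuclei, CIN micronuclei, MSI free cytosolic DNA or CIN free cytosolic DNA, and the 4 groups of CIN tumours received the same 4 preparations. No library of a tumour given unexposed dendritic cells was analysed here. Equal RNA amounts of 3 biological replicates were combined, per the series description, but the labels do not say whether that holds for every library separately. The spread between libraries may therefore be partly technical.

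The colon wall is built in layers. A single sheet of absorptive colonocytes, mucus-secreting goblet cells and hormone-secreting enteroendocrine cells is renewed from stem cells at the base of the crypts, and lies on a lamina propria that is rich in IgA plasma cells and mucosal mast cells. Beneath it are smooth muscle layers with the neurons and glia of the enteric nervous system, interstitial cells of Cajal that pace contraction, and an outer mesothelium. An orthotopic colon tumour borders on these layers.

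Because levels in these 8 libraries chose the sets, every difference between replicate 2 and replicate 1 MSI libraries below is a description, with no test. Total counts ran from 15099607 to 16257338 in the replicate 2 libraries, against 11880546 to 16164143 in the replicate 1 libraries, and from 11561955 to 17937501 in the 8 CIN tumour libraries. Levels are CPM, each library's counts scaled to a common total after TMM normalization. Differences are replicate 2 minus replicate 1 within a pair on the log2(CPM) scale with a prior count of 2, given as the mean ± SD over 4 pairs. Of 18777 genes tested, 26.4% were higher in 4 of 4 pairs and 27.1% lower in 4 of 4 pairs. With a mean difference of at least 2-fold as well, 14.8% were higher and 2.75% lower, so the large differences lay mostly on the higher side. The median difference over all genes was -0.08. The lower share of 2.75%, 517 genes, rested on 1 pair: without the MSI micronuclei pair 1493 genes were lower by at least 2-fold. Calls by edgeR or DESeq2 on this split would test values that chose the sets, so the counts in every pair are used below. The share of all genes without overlap between the sets was not counted. Where sets are said not to overlap, this describes the values of that gene or score only.

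The 4 markers of the split separated the sets without overlap, and values are given throughout in the order MSI micronuclei, CIN micronuclei, MSI free DNA and CIN free DNA. Epcam (chr17:87635979-87651106, plus strand, build GRCm38), an adhesion molecule of epithelial cells, had 749.5, 1366, 1259 and 1216 CPM in the replicate 2 libraries, against 424, 67.8, 302 and 113 CPM in the replicate 1 libraries. Muc2 (chr7:141690340-141754693, plus strand), the gel-forming mucin of goblet cells, had 1738, 1792, 2348 and 2240 CPM in the replicate 2 libraries, against 754, 107, 1219 and 407 CPM in the replicate 1 libraries. The replicate 1 tumour of the CIN micronuclei group was lowest for both. Car1 (chr3:14766216-14808368, minus strand), a carbonic anhydrase of colonocytes, had 233, 527, 591 and 389 CPM in the replicate 2 libraries, against 71.2, 8.9, 49.5 and 14.2 CPM in the replicate 1 libraries. Myh11 (chr16:14194535-14291372, minus strand), the myosin heavy chain of smooth muscle, had 464, 1044, 1344 and 978 CPM in the replicate 2 libraries, against 246, 73.7, 98.9 and 70.6 CPM in the replicate 1 libraries. Every replicate 2 library was above every replicate 1 library for each of the 4 genes, with mean differences of 2.66 ± 1.54, 2.17 ± 1.43, 3.98 ± 1.78 and 3.07 ± 1.44.

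**Figure D1:**
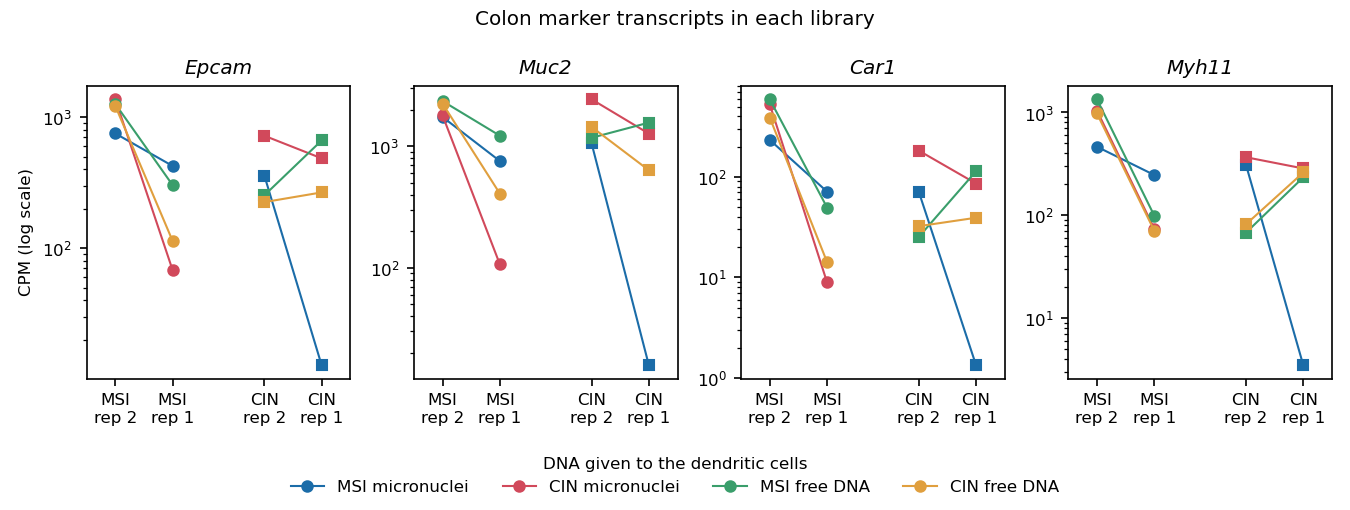
Level of Epcam, Muc2, Car1 and Myh11 in each library (CPM, log scale); each line joins the 2 libraries of a group, coloured by the DNA given to the dendritic cells, with MSI tumours as circles and CIN tumours as squares. All 4 MSI lines slope down from replicate 2 to replicate 1, while 2 of 4 CIN lines for Epcam slope up.

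The pairs were not alike in size. The absorptive colonocyte score, the mean log2 CPM of 17 colonocyte genes, was 6.42, 6.86, 6.8 and 7.25 in the replicate 2 libraries, against 5.05, 2.81, 5.22 and 3.83 in the replicate 1 libraries. The paired gap was 1.37 in the MSI micronuclei pair, 4.05 in the CIN micronuclei pair, 1.58 in the MSI free DNA pair and 3.42 in the CIN free DNA pair. Colon-poor is thus a relative term: the replicate 1 libraries of the MSI micronuclei and MSI free DNA groups scored 5.05 and 5.22, within the 4.38 to 6.66 of 7 of the 8 CIN tumour libraries. Another tissue also differed within the colon-poor set. The skeletal muscle score was 5.45 in the replicate 1 library of the CIN micronuclei group and between -0.904 and -0.595 in the other 3. Its Myh4, a fast myosin heavy chain, stood at 138 CPM there and at 0 in the other 7 MSI libraries. In bulk tissue, fewer cells of a type and less RNA per cell cannot be told apart.

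All layers of the colonic epithelium that were listed followed the split, apart from tuft cells and stratified squamous epithelium. Of 19 pan-epithelial genes 18 were higher in 4 of 4 pairs (26.4% of all genes were), with a median difference of 2.66. Cdx2, a transcription factor of intestinal identity, was the one that was higher in 3 pairs. Krt18, a simple epithelial keratin, differed by 2.97 ± 1.63, and Pigr, the receptor that carries IgA across the epithelium, by 2.89 ± 1.63. Of 17 absorptive colonocyte genes 15 were higher in every pair, with a median of 2.82, the highest of the 46 lists. Slc26a3, the chloride and bicarbonate exchanger of the colonocyte surface, had 383, 483, 559 and 588 CPM in the replicate 2 libraries, against 126, 18.2, 111 and 31.8 CPM in the replicate 1 libraries. Krt20, a keratin of mature surface cells, had 227, 444, 419.8 and 472 CPM in the replicate 2 libraries, against 149.9, 20.9, 77.1 and 32.6 CPM in the replicate 1 libraries. Neither gene overlapped between the sets, and the exceptions, Slc9a3 and Tmigd1, were higher in 3 pairs.

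The secretory cells and the crypt base went with the colonocytes, and over all genes 26.4% were higher in 4 of 4 pairs. All 13 goblet cell genes were higher in 4 of 4 pairs (median 2.31), among them Clca1, a secreted goblet protein, at 2.89 ± 1.20, and Atoh1, the transcription factor that sets the secretory fate, at 2.69 ± 1.09. Of 11 tested enteroendocrine genes 10 were higher in every pair (median 2.05), with the granin Chgb at 2.72 ± 1.35. All 8 tested crypt base genes were higher in every pair (median 2.18). Lgr5, the R-spondin receptor that marks crypt stem cells, had 6.03, 8.49, 7.44 and 5.93 CPM in the replicate 2 libraries, against 2.63, 0.187, 1.08 and 0.776 CPM in the replicate 1 libraries. Axin2, a feedback gene of Wnt signalling, differed by 2.31 ± 0.73. Epithelial defence genes were higher in every pair for 4 of 7 (median 2.26), and Nox1, an NADPH oxidase of colon epithelium, differed by 3.42 ± 1.33.

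Tuft cells, the chemosensory cells of the epithelium, did not follow as a list. Of 5 tested genes 1 was higher and 3 lower in every pair (median -0.62), beside 26.4% and 27.1% of all genes. Trpm5, a cation channel of taste signalling, had 3.04, 2.36, 1.54 and 2.47 CPM in the replicate 2 libraries, against 0.741, 0.622, 1.08 and 0.582 CPM in the replicate 1 libraries. Dclk1, a kinase used as a tuft cell marker, had 55.3, 34.5, 34.3 and 36.2 CPM in the replicate 2 libraries, against 67.3, 69.6, 58.9 and 94.1 CPM in the replicate 1 libraries. The 2 genes differed in opposite directions, and neither overlapped between the sets. Of 4 tested stratified squamous genes none was higher or lower in every pair, and Krt5, a basal keratin, was between 0 and 0.805 CPM in the 8 libraries.

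The muscle coat was higher in the colon-rich set as well. All 15 smooth muscle genes were higher in 4 of 4 pairs, with a median of 2.62, and 14 of them by at least 2-fold (14.8% of all genes were). Acta2, smooth muscle actin, had 517, 1127, 1243 and 918 CPM in the replicate 2 libraries, against 247, 79.7, 139 and 84.7 CPM in the replicate 1 libraries. Actg2, the enteric smooth muscle actin, had 365, 946, 938 and 861 CPM in the replicate 2 libraries, against 262, 73.6, 103 and 75.8 CPM in the replicate 1 libraries. The lowest replicate 2 value of both genes belonged to the MSI micronuclei group and still exceeded the highest replicate 1 value. Lmod1, a leiomodin of muscle actin filaments, differed by 3.41 ± 1.22, the most of the list. Of 3 genes of interstitial cells of Cajal, the receptor Kit (1.35 ± 0.69) and the chloride channel Ano1 (0.99 ± 0.26) were higher in every pair. The transcription factor Etv1 was lower in every pair (-0.73 ± 0.62).

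Most enteric neuron and glia genes were likewise higher in the colon-rich set. Of 12 tested neuronal genes 10 were higher in 4 of 4 pairs (median 1.79), beside 26.4% of all genes. The summed counts of the neuronal list went the other way, at a mean of 0.0259% in the replicate 2 libraries against 0.0312% in the replicate 1 libraries. That share was higher in 1 of 4 pairs, with overlapping sets. Elavl4, a neuronal RNA-binding protein, had 3.11, 4.59, 5.97 and 3.07 CPM in the replicate 2 libraries, against 0.741, 0.56, 1.15 and 0.388 CPM in the replicate 1 libraries. Snap25, a protein of synaptic vesicle fusion, differed by 2.70 ± 1.56, and Ret, the receptor that guides enteric nerve precursors, by 2.14 ± 1.00. Tubb3, a tubulin used as a neuronal marker, went the other way and was lower in every pair (-0.68 ± 0.32). Of 7 glial genes 5 were higher in every pair (median 1.40), with the transcription factor Sox10 at 2.31 ± 1.14.

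The outer and supporting tissues were mixed. Msln, mesothelin, had 119, 46.8, 73.4 and 113 CPM in the replicate 2 libraries, against 182, 187, 262 and 146 CPM in the replicate 1 libraries, lower in every pair and without overlap. None of the 7 tested mesothelial genes was higher in 4 of 4 pairs, 2 were lower (27.1% of all genes were lower), and the list median of -0.27 turned to 0.58 without the MSI free DNA pair. Of 14 fibroblast and matrix genes 8 were higher and 2 lower in every pair (median 0.41), beside 26.4% and 27.1% of all genes. Their summed counts went the other way, at a mean of 0.335% in the replicate 2 libraries against 0.475% in the replicate 1 libraries. That share was higher in 1 of 4 pairs, with overlapping sets. Lum, a leucine-rich proteoglycan, differed by 1.95 ± 1.00 and Postn, periostin, by 1.80 ± 0.67, while Col6a1, a chain of type VI collagen, differed by -0.67 ± 0.62. The vessels divided. Of 6 lymphatic endothelial genes 4 were higher in every pair (median 1.65), beside 26.4% of all genes, with the hyaluronan receptor Lyve1 at 2.40 ± 1.64. Of 14 blood endothelial genes 1 was higher and 5 were lower in every pair (median -0.20), beside 26.4% and 27.1% of all genes. Pericytes (median -0.32), adipocytes (-0.32), skeletal muscle (-0.86) and erythroid cells (-0.92) had at most 2 genes each higher in every pair. The skeletal muscle median rested on the CIN micronuclei pair and was 0.89 without it: the list score differed by -5.52 in that pair and was higher in the other 3.

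**Figure D2:**
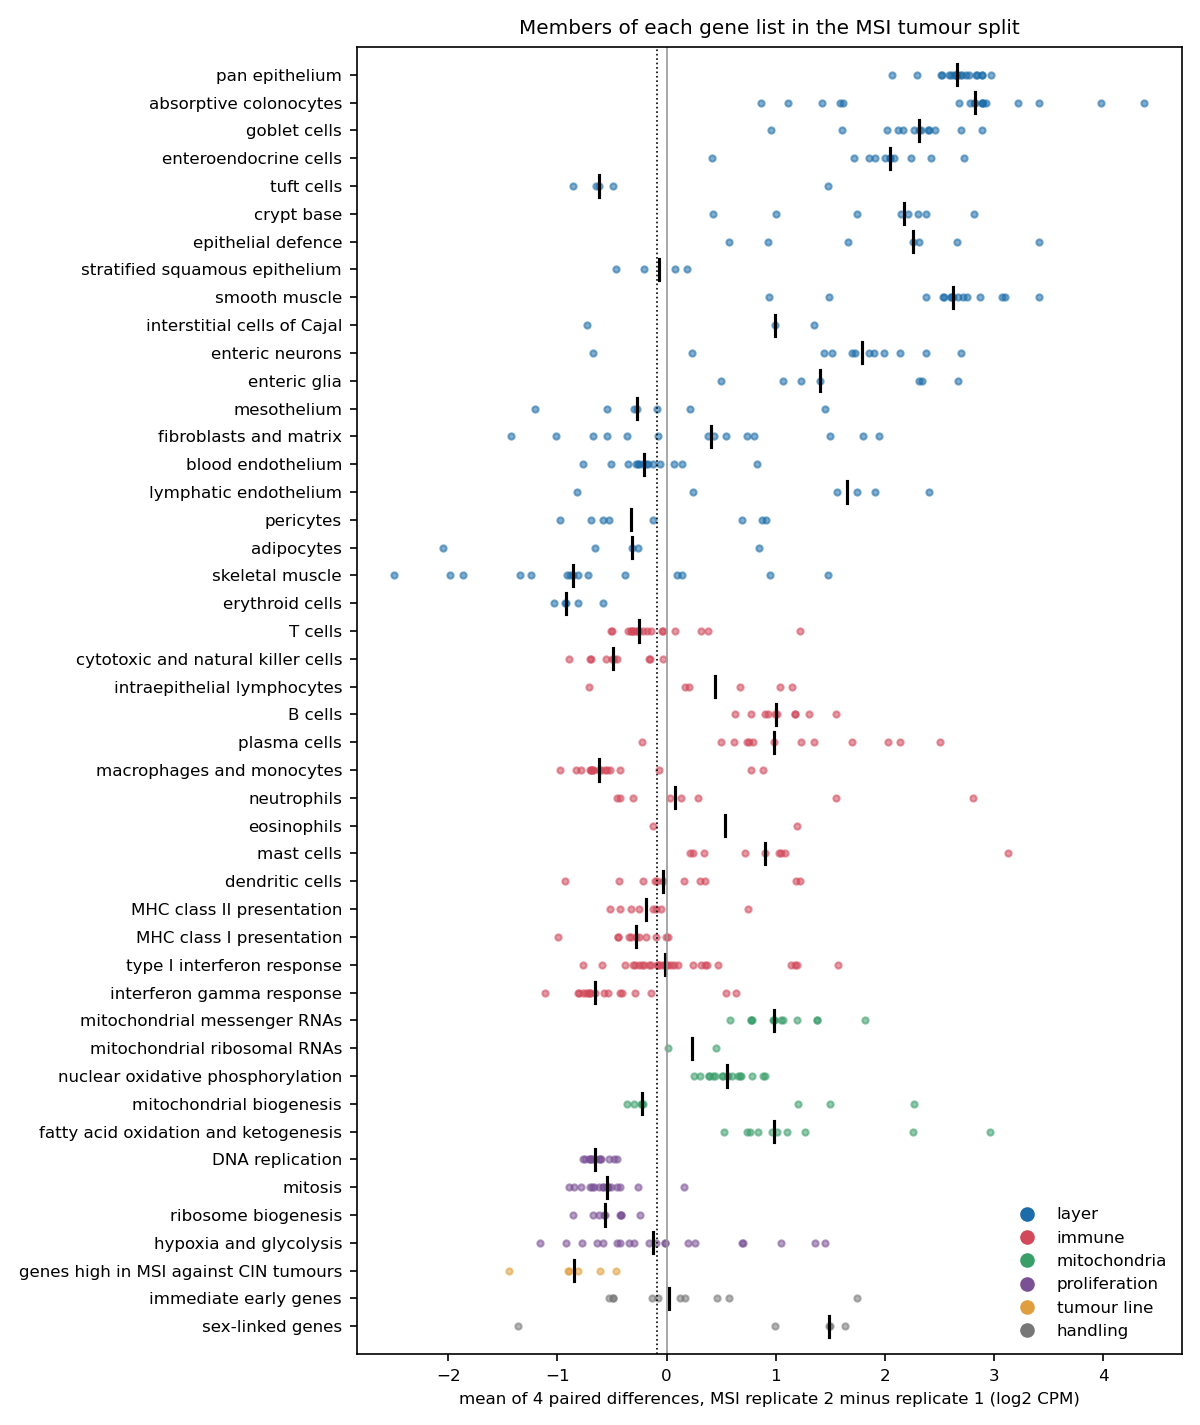
Mean paired difference of every tested member of the 46 gene lists in MSI tumours (log2 CPM, replicate 2 minus replicate 1); points are genes coloured by class, black bars are list medians, and the dotted line is the median of all 18777 genes. Medians of epithelial, smooth muscle and enteric nerve lists lie between 1.40 and 2.82, except tuft and squamous cells, and those of DNA replication, mitosis, macrophage and interferon gamma lists lie between -0.66 and -0.54.

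Mitochondrial transcripts were higher in the colon-rich set. Genes of the mitochondrial genome took 2.29, 3.68, 3.19 and 2.88% of counts in the replicate 2 libraries, against 1.6, 1.57, 1.71 and 1.44% in the replicate 1 libraries. The sets did not overlap, and the CIN tumour libraries ran from 1.61% to 2.36%. Of 13 mitochondrial messenger RNAs 12 were higher in 4 of 4 pairs, against 26.4% of all genes, with a median of 0.98. mt-Co1, the catalytic subunit of cytochrome oxidase, had 10670, 18530, 14980 and 13930 CPM in the replicate 2 libraries, against 7131, 7020, 7303 and 6235 CPM in the replicate 1 libraries. mt-Nd1, a subunit of complex I, had 2474, 4097, 3733 and 3420 CPM in the replicate 2 libraries, against 1954, 1986, 2082 and 1854 CPM in the replicate 1 libraries. mt-Co1 held more counts than any other of the 13 in each of the 8 libraries, and its replicate 1 values lay close together. The exception was mt-Nd3, a small complex I subunit, which was higher in 3 pairs. mt-Atp6, a subunit of ATP synthase, had the largest mean difference (1.82 ± 0.70). Its gene overlaps mt-Atp8, and reads within the overlap cannot be assigned to 1 of the 2.

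The ribosomal RNAs of the mitochondrion differed less. mt-Rnr2, the large ribosomal RNA, differed by 0.45 ± 0.23, and mt-Rnr1, the small one, by 0.02 ± 0.18. Both were counted in libraries made from poly-A selected RNA. The nuclear genes of oxidative phosphorylation were higher with the mitochondrial messages: all 17 were higher in 4 of 4 pairs, by 0.25 to 0.90, and none by 2-fold. Uqcrfs1, the iron-sulfur protein of complex III, had 126, 183, 177 and 157 CPM in the replicate 2 libraries, against 93.3, 75.2, 94.9 and 78.8 CPM in the replicate 1 libraries. Cox5a, a subunit of cytochrome oxidase, differed by 0.88 ± 0.54.

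Regulators of mitochondrial content did not all differ in 1 direction. The coactivators Ppargc1a (2.27 ± 1.58) and Ppargc1b (1.20 ± 0.23) and the nuclear receptor Esrra (1.49 ± 0.74) were higher in every pair. Tfam, which packages and transcribes mitochondrial DNA, was lower in every pair (-0.23 ± 0.15), as were the transcription factor Nrf1 (-0.30 ± 0.17) and the helicase Twnk (-0.36 ± 0.16). The list of 8 therefore had a median of -0.22 and a mean of 0.45. All 10 genes of fatty acid oxidation and ketogenesis were higher in 4 of 4 pairs (median 0.99). Ehhadh, a peroxisomal enzyme of fatty acid oxidation, differed by 2.96 ± 1.53, and Cpt1a, which admits fatty acids to mitochondria, by 1.27 ± 0.49.

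**Figure D3:**
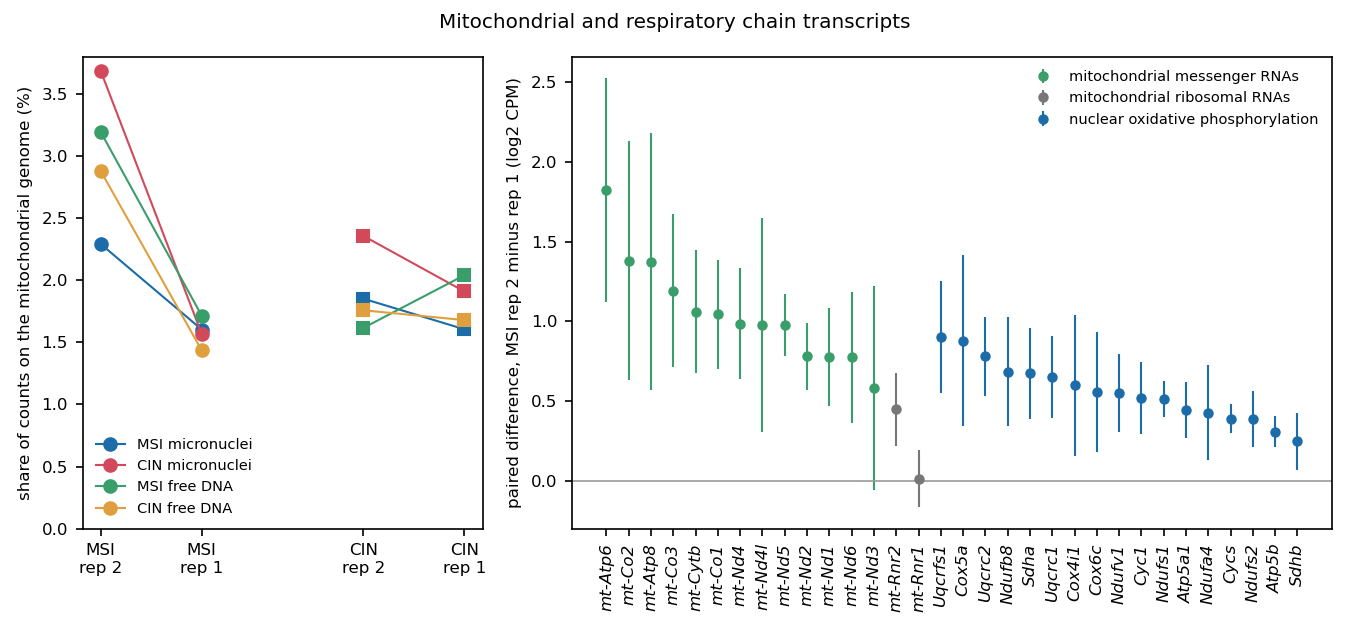
Left, share of each library's counts on the mitochondrial genome (%), with lines joining the 2 libraries of a group; right, paired difference of mitochondrial and nuclear respiratory chain genes in MSI tumours (log2 CPM, mean and SD of 4 pairs). MSI replicate 2 libraries lie between 2.29% and 3.68%, all above the 1.44% to 1.71% of MSI replicate 1 libraries.

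Proliferation genes ran opposite to the colon wall. All 13 DNA replication genes were lower in 4 of 4 pairs (27.1% of all genes were), with a median of -0.66. Mcm6, a subunit of the replicative helicase, had 196, 160.5, 156 and 169 CPM in the replicate 2 libraries, against 273, 295, 232 and 308 CPM in the replicate 1 libraries. Mcm5, another subunit, had 166, 117, 140.0 and 139 CPM in the replicate 2 libraries, against 222, 268, 200.2 and 262 CPM in the replicate 1 libraries. The sets did not overlap for either gene, and the differences were -0.70 ± 0.20 and -0.76 ± 0.36. Of 19 mitosis genes 17 were lower in every pair (median -0.54), among them Bub1, a spindle checkpoint kinase (-0.89 ± 0.50), and Top2a, which untangles replicated DNA (-0.78 ± 0.40). Mki67, the proliferation antigen, had 344, 277, 249 and 242 CPM in the replicate 2 libraries, against 364, 482, 337 and 438 CPM in the replicate 1 libraries, lower in every pair but with overlapping sets. Plk1, a mitotic kinase, was higher in every pair by 0.16 ± 0.13. All 9 ribosome biogenesis genes were lower in every pair (median -0.56), including Myc at -0.85 ± 0.38; with DESeq2 size factors 8 of 9 were.

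The promoters of the replication genes are shown because E2F factors are the textbook regulators of this list. An E2F match was TTTCCCGC, TTTCGCGC, TTTGCCGC or TTTGGCGC on either strand, overlaps included, in the window from 250 bases before to 50 after each gene start in the RefSeq GRCm38.p6 table. Of 13 listed genes 11 had a window, and 6 of the 11 (54.5%) held a match: Mcm3, Mcm5, Mcm6, Mcm7, Cdc6 and Cdt1. Of all 27025 genes with a window 2.6% did, and of all 32851 windows 2.26%. The windows of Mcm6 (chr1:128359656-128359955 on the minus strand) and Mcm5 (chr8:75109259-75109558 on the plus strand) are printed 5′ to 3′ with matches in capitals.
Mcm6: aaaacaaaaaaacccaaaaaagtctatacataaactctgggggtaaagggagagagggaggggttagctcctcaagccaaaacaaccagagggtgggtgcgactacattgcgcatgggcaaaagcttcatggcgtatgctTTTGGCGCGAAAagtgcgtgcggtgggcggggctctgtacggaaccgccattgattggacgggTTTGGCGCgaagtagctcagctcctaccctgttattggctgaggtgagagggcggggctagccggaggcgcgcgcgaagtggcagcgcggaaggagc
Mcm5: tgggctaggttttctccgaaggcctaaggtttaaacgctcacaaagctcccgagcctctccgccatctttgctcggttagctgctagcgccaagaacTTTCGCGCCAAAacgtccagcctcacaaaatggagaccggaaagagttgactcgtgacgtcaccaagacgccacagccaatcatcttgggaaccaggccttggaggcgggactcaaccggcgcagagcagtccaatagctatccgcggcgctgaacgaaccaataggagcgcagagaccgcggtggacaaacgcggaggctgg

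A match is a description of letters, not a site. Pcna, Tyms, Mcm2, Rrm1 and Rrm2 had no match in their windows, and their differences (-0.69 to -0.48) lay beside those of the 6 genes with one (-0.76 to -0.61). For smooth muscle genes an exact match to the CArG box was found in 1 of 12 genes (8.33%), against 1.81% of all genes. The match was CCTAATAAGG in Myl9, and a gene without a match can still hold a variant form of the box. For colonocyte genes the letters CAAAGTNCA, searched as an HNF4 motif, were found in 1 of 15 genes (6.67%, Fabp2), against 1.64% of all genes. For targets of interferon gamma the letters TTCNNNGAA, searched as a GAS (gamma activated site) motif, were found in 7 of 14 genes (50.0%). Of all genes 9.55% held them.

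Macrophage genes were lower in the colon-rich set. Of 17 genes 12 were lower in 4 of 4 pairs (median -0.62), against 27.1% of all genes, and none by 2-fold. Trem2, a lipid-sensing receptor of tumour macrophages, had 17.3, 12.7, 17.3 and 23.5 CPM in the replicate 2 libraries, against 28.8, 36.8, 32.5 and 39.2 CPM in the replicate 1 libraries. C1qa, a chain of complement C1q, had 184, 171, 176 and 207 CPM in the replicate 2 libraries, against 266, 307, 292 and 335 CPM in the replicate 1 libraries. Both were lower without overlap, as was Cd68, a lysosomal glycoprotein of macrophages (-0.56 ± 0.39). Mertk, a receptor for the clearance of dying cells, was higher in every pair (0.77 ± 0.17), and Cd163, the haemoglobin scavenger receptor, in 3 of 4. Mertk and Cd163 thus stood apart from the rest of the list.

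Targets of interferon gamma were lower on the median, but the count of genes lower in every pair rested on the scaling. Of 17 genes 11 were lower in 4 of 4 pairs (median -0.65), against 27.1% of all genes. With DESeq2 size factors 3 were (median -0.58), beside 4424 of all 18777 genes, so that count was not above the share of all genes. Gbp2, a guanylate-binding protein, had 415, 664, 505 and 476 CPM in the replicate 2 libraries, against 770.1, 714, 952 and 1168 CPM in the replicate 1 libraries. Gbp7, of the same family, had 147, 156, 127 and 122 CPM in the replicate 2 libraries, against 228, 258, 332 and 402 CPM in the replicate 1 libraries, and it was the only member lower by at least 2-fold (-1.11 ± 0.52). Cxcl9, a chemokine that draws T cells, had 218, 359, 345 and 302 CPM in the replicate 2 libraries, against 361, 376, 496 and 543 CPM in the replicate 1 libraries. Irf8, a transcription factor of myeloid and B cells, was higher in every pair (0.63 ± 0.37) without overlap.

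Type I interferon genes split among themselves. Of 30 genes 8 were higher and 4 lower in 4 of 4 pairs, near the 26.4% and below the 27.1% of all genes, and the median of -0.02 changed sign with the scaling. Oasl1, an antiviral oligoadenylate synthetase-like protein, had 26.9, 44.1, 49.3 and 62.9 CPM in the replicate 2 libraries, against 21.3, 8.53, 16.9 and 14.9 CPM in the replicate 1 libraries. Ifih1, the sensor of long double-stranded RNA, had 57.4, 87.8, 93.4 and 114 CPM in the replicate 2 libraries, against 36.9, 30.2, 39.9 and 43.6 CPM in the replicate 1 libraries. Neither overlapped, and Oas1a (1.18 ± 0.53) and the transcription factor Irf7 (1.14 ± 0.70) were also higher by at least 2-fold. Bst2, which tethers budding viruses, was lower in every pair (-0.77 ± 0.19), as were Ifit2 (-0.39 ± 0.17) and Herc6 (-0.31 ± 0.20). Ifit1 was higher in every pair (0.47 ± 0.24) with overlapping sets.

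Antigen presentation and T cell lists had small median differences, and over all genes 26.4% were higher and 27.1% lower in 4 of 4 pairs. The MHC class I score was lower in every pair without overlap, from 7.8 to 8.2 in the replicate 2 libraries against 8.23 to 8.63. Of 11 MHC class I genes 3 were lower in every pair (median -0.28), with B2m, the class I light chain, at -0.45 ± 0.09 and Nlrc5, the class I transactivator, at -0.99 ± 0.37. Of 8 class II genes 2 were lower (median -0.19), and none with DESeq2 size factors. Of 19 T cell genes 3 were higher and 4 lower in every pair (median -0.25). Cd8a, the coreceptor of cytotoxic T cells, had 12.7, 21.8, 23.9 and 28.1 CPM in the replicate 2 libraries, against 22.1, 25.1, 26.5 and 26.5 CPM in the replicate 1 libraries, with overlapping sets. Cd4 was higher in every pair by 0.32 ± 0.16, also with overlap. Of 10 cytotoxic and natural killer genes 1 was lower in every pair (median -0.49). Of 11 dendritic cell genes 3 were higher and 2 lower (median -0.03), with Flt3, the receptor that dendritic cells need to develop, at 1.19 ± 0.35. The summed counts of the dendritic cell list went the other way from Flt3, lower in every pair without overlap. Their mean share was 0.023% in the replicate 2 libraries, against 0.0406% in the replicate 1 libraries.

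Of the immune cells that live in the mucosa, plasma cells had 8 of 13 tested genes higher in 4 of 4 pairs (median 0.99), beside 26.4% of all genes. Igha, the IgA heavy chain, had 1195, 1089, 1093 and 911 CPM in the replicate 2 libraries, against 320.0, 41.1, 710.1 and 364 CPM in the replicate 1 libraries. Jchain, which joins IgA dimers, differed by 2.02 ± 1.60, whereas Ighg1, an IgG heavy chain, was higher in 2 of 4 pairs (-0.22 ± 2.13). All 10 B cell genes had a mean above 0 (median 1.00), but 2 were higher in every pair: in the MSI micronuclei pair the other 8 were lower in the replicate 2 library. Mcpt1, a protease of mucosal mast cells, had 7.77, 3.51, 2.08 and 4 CPM in the replicate 2 libraries, against 0.247, 0.0622, 1.01 and 0.388 CPM in the replicate 1 libraries, and 2 of 9 mast cell genes were higher in every pair (median 0.90). The B cell and mast cell counts were not above the 26.4% of all genes.

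The neutrophil list held 1 gene that was higher in every pair. Ly6g, a surface antigen used to stain neutrophils, had 63, 192, 134 and 170.3 CPM in the replicate 2 libraries, against 61.8, 8.65, 24 and 8.67 CPM in the replicate 1 libraries. The defining granulocyte genes did not go with it: S100a9 was between 0.165 and 0.776 CPM and S100a8 between 0.129 and 1.34 CPM in the 8 libraries. Csf3r, the receptor for granulocyte growth factor, was lower in 3 of 4 pairs (-0.43 ± 0.61). The source of the Ly6g counts was not tested.

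Among protein-coding genes that differed in the same direction in 4 of 4 pairs whose level averaged 1 or more on the log2 CPM scale, the 8 highest were Cyp2c55 (4.38 ± 2.02), S100g (4.21 ± 1.66), 2310079G19Rik (4.09 ± 1.99), Clca4b (4.01 ± 4.21), Car1, Fxyd4 (3.88 ± 1.81), H2-Q1 (3.83 ± 2.22) and Hhip (3.74 ± 1.26). Cyp2c55 (chr19:39007019-39042693, plus strand), a cytochrome P450, had 262, 190.0, 296 and 266 CPM in the replicate 2 libraries, against 8.15, 1.49, 64.9 and 23.8 CPM in the replicate 1 libraries. S100g binds calcium in absorptive epithelium, Fxyd4 regulates the sodium pump, and Hhip binds hedgehog ligands. Clca4b overlapped between the sets, and 1 library, the replicate 2 tumour of the CIN micronuclei group, held 516 CPM of it. Reads of near-identical relatives, such as Clca4a and Clca4b, the guanylate-binding proteins or H2-Q1 and other class I genes, could be split uncertainly.

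The 8 lowest were smaller in size: Prtg (-1.98 ± 1.25), P2rx3 (-1.88 ± 1.11), Necab3 (-1.71 ± 0.84), Car6 (-1.68 ± 1.10), Rhd (-1.66 ± 0.63), Aldh1l2 (-1.65 ± 1.20), Hoxc8 (-1.62 ± 0.69) and Crhbp (-1.59 ± 1.45). Prtg, protogenin, had 19.8, 2.36, 7.11 and 10.7 CPM in the replicate 2 libraries, against 29.3, 29.9, 31.2 and 34.1 CPM in the replicate 1 libraries. Aldh1l2, a mitochondrial enzyme of folate metabolism, had 92.4, 17.9, 29.2 and 41.9 CPM in the replicate 2 libraries, against 97.7, 142, 86.3 and 167 CPM in the replicate 1 libraries, with overlapping sets. The replicate 2 library of the CIN micronuclei group was lowest of the 8 for Prtg, and the replicate 2 library of the MSI micronuclei group was nearest to the colon-poor set. Hoxc8, a homeobox factor, was lower without overlap.

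Of 20 hypoxia and glycolysis genes 5 were higher in 4 of 4 pairs, beside 26.4% of all genes, and 9 lower, beside 27.1% (median -0.13). Their summed counts were lower in every pair without overlap, at a mean of 0.781% in the replicate 2 libraries against 0.977% in the replicate 1 libraries. P4ha1, a collagen prolyl hydroxylase, had 154, 93.1, 79.1 and 114 CPM in the replicate 2 libraries, against 187, 303, 214 and 262 CPM in the replicate 1 libraries. Car9, a carbonic anhydrase induced by low oxygen, was higher (1.36 ± 0.50), as was Adm, adrenomedullin (1.45 ± 0.47). Of 6 genes listed because they were high in MSI against CIN tumours in these same libraries, 4 were lower in every pair (median -0.85), or 3 with DESeq2 size factors. Amigo2, an adhesion protein, had 163, 110.5, 146 and 159.5 CPM in the replicate 2 libraries, against 246, 296, 241 and 226 CPM in the replicate 1 libraries. Fst, follistatin, had 43.2, 33.4, 54.3 and 60.4 CPM in the replicate 2 libraries, against 64.3, 79.5, 81.9 and 61.2 CPM in the replicate 1 libraries. The immediate early genes, a sign of handling, had a median of 0.02 that changed sign with the scaling, and 3 of 10 were lower in every pair. The 4 Y-linked genes were higher in every pair, Eif2s3y by 1.63 ± 0.59, and Xist, the X-inactivation RNA, stayed between 0 and 0.684 CPM in the 8 libraries.

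The CIN tumours give the same replicate numbers in libraries that did not choose the sets. There the numbers did not separate the list scores of the colon layers. No gene passed edgeR's quasi-likelihood test at an adjusted p of 0.05 in either direction (0% of 18777 higher and 0% lower), while 1684 genes had an unadjusted p below 0.05. DESeq2 called 254 higher and 179 lower of 10404 genes given an adjusted p. Of all genes 9.95% were higher and 8.77% lower in 4 of 4 CIN pairs. None of the 17 colonocyte and none of the 15 smooth muscle genes was higher in every CIN pair. Epcam was higher in 2 of 4 CIN pairs, and the colonocyte gap was 4.39, 1.08, -1.71 and -0.87 in the MSI micronuclei, CIN micronuclei, MSI free DNA and CIN free DNA pairs. Whether the split differs between MSI and CIN tumours was not tested, since the MSI libraries were chosen for theirs. In every CIN pair 1 of 13 DNA replication genes and 4 of 19 mitosis genes were lower, beside the 8.77%.

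The CIN libraries nevertheless varied in colon content, and list scores were correlated with the colonocyte score across all 8, disregarding replicate number and treatment group. The exact tests below therefore treat libraries of different treatments as exchangeable. Scores are mean log2 CPM of a list's tested genes, p-values are from two-sided exact permutation tests over 40320 pairings, adjusted over 46 measures, and all scores share libraries and a common total. Of 46 measures 22 passed 0.05 by Pearson's r, 13 by Spearman's rho and 11 by both. Enteric neurons (r = 0.98, adjusted exact p = 0.00274; rho = 0.95, adjusted exact p = 0.00875), enteric glia (r = 0.97, p = 0.00274; rho = 0.88, p = 0.0256) and the crypt base (r = 0.97, p = 0.00274; rho = 0.95, p = 0.00875) passed both exact tests. Smooth muscle had r = 0.97 (adjusted exact p = 0.0075) and rho = 0.76 (adjusted exact p = 0.0676).

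One CIN library stood far from the rest, the replicate 1 tumour of the MSI micronuclei group, with a colonocyte score of 0.81 against 4.38 to 6.66 in the others. Without it, smooth muscle gave r = 0.86 with an adjusted exact p of 0.0704, goblet cells 0.80 with 0.0742 and plasma cells 0.80 with 0.087, so those 3 calls rested on it. Of the 22 measures that passed by r, 9 still passed over the other 7 libraries. Enteric neurons kept r = 0.94 with an adjusted exact p of 0.0209. Without it and the library farthest on the other side (the replicate 2 tumour of the CIN micronuclei group), r over the remaining 6 was 0.92 for neurons, 0.91 for glia, 0.92 for the crypt base, 0.85 for smooth muscle, 0.56 for goblet cells and 0.61 for plasma cells.

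Proliferation ran against colon content in CIN tumours too. DNA replication had r = -0.90 (adjusted exact p = 0.00913) and rho = -0.98 (adjusted exact p = 0.00875), and r was -0.94 without the lowest library and -0.92 without both extreme libraries. Mitosis had r = -0.86 (adjusted exact p = 0.017) and rho = -0.98 (adjusted exact p = 0.00875), with r of -0.96 without both. Leaving out the replicate 1 library of the MSI free DNA group gave r = -0.85 for mitosis with an adjusted exact p of 0.0734. Ribosome biogenesis had r = -0.80 (adjusted exact p = 0.0281) and rho = -0.91 (adjusted exact p = 0.0175), with r of -0.79 without both.

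Measures of the respiratory chain divided. Mitochondrial messenger RNAs passed neither test, with r = 0.65 (adjusted exact p = 0.072) and rho = 0.71 (adjusted exact p = 0.0981). Nuclear oxidative phosphorylation had rho = 0.91 (adjusted exact p = 0.0175), while r = 0.71 had an adjusted exact p of 0.0515 and was 0.95 over the 6 central libraries. The mitochondrial share of counts had rho = 0.93 (adjusted exact p = 0.0147) and r = 0.72 (adjusted exact p = 0.0988), with 0.83 over the 6. Without the lowest library r was 0.91 for this share (adjusted exact p = 0.0217). It was then 0.81 for mitochondrial messenger RNAs (adjusted exact p = 0.087) and 0.84 for oxidative phosphorylation (adjusted exact p = 0.0704). The immune lists that were lower in the colon-rich MSI set did not pass: macrophages had r = -0.30 (adjusted exact p = 0.529) and interferon gamma targets r = 0.11 (adjusted exact p = 0.881). Without the lowest library r was -0.31 for macrophages (adjusted exact p = 0.567) and turned to -0.41 for interferon gamma targets (adjusted exact p = 0.436). The list of genes high in MSI against CIN tumours, lower in the colon-rich MSI set, rose with the colonocyte score here. It had r = 0.74 (adjusted exact p = 0.0281) and rho = 0.76 (adjusted exact p = 0.0676). Leaving out the lowest library gave r = 0.62 for that list (adjusted exact p = 0.241). The skeletal muscle score ran against colon content, at r = -0.73 (adjusted exact p = 0.00913) and rho = -0.91 (adjusted exact p = 0.0175), and r was -0.84 with an adjusted exact p of 0.0639 without the lowest library. Its part in the relations above was not tested.

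**Figure D4:**
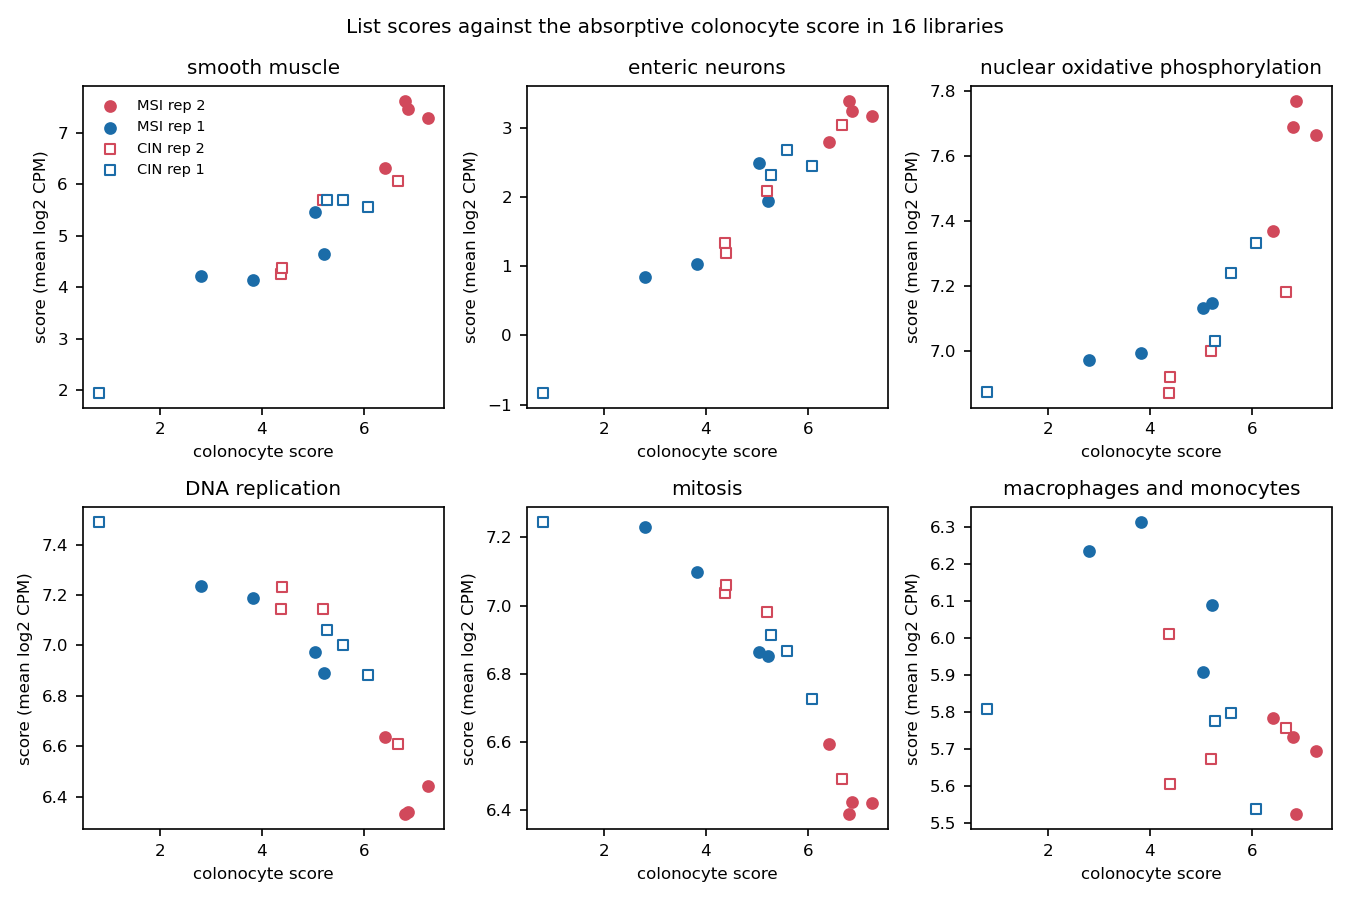
Score of 6 gene lists (mean log2 CPM) against the absorptive colonocyte score in all 16 libraries, MSI tumours as filled circles and CIN tumours as open squares, replicate 2 in red and replicate 1 in blue. Smooth muscle and neuron scores climb and the DNA replication and mitosis scores descend with the colonocyte score in both tumour types, while macrophage scores of CIN tumours scatter (r = -0.30).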

How the data were processed

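RNA of 16 tumour libraries was sequenced after poly-A selection. The authors deposited raw read counts per gene and FPKM values; the FPKM table and 4 columns of the count table that matched no sample were not used. The submitters' processing notes name GRCm39, HISAT2 2.0.5, featureCounts 1.5.0-p3 and fastp. The count table's coordinates, however, equal those of GENCODE M21 (GRCm38) for 53585 of the 54495 identifiers held in common, and GRCm38 is used. No source used here gives the strand setting, so overlapping and antisense genes could not be told apart.

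Of 54532 genes, 18777 passed filterByExpr. Counts were scaled by TMM in edgeR 4.0.16 (R 4.3.3), with a model of 1 mean per pair and a replicate effect in each tumour type, quasi-likelihood tests and Benjamini-Hochberg adjustment at 0.05, checked on simulated counts. Alternatives were DESeq2 1.42.0, other size factors, no filter, 1 tumour type alone, no pairing, a prior count of 0.5 and leaving out each library or pair. The libraries compared and the 46 lists (527 genes, 498 tested) were chosen with earlier results of these data known. Genes named were the 4 markers, a fixed set, up to 3 members per list with the largest differences and the 8 largest in each direction; others illustrate exceptions and were chosen after their values were seen. Some members of the lists are counted but not reported by name here.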

Additional observations from a re-analysis of the deposited data

Results flagged for a closer look

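For each list score and mitochondrial measure the 4 replicate 2 MSI libraries, the 4 replicate 1 MSI libraries and the 8 CIN libraries were searched for a single library far from its set, where the gap to the next library exceeded Dixon's 95% limit for the range. In 141 such searches 20 values stood apart, and chance alone gives about 1 in 20. All values are mean log2 CPM of a list.

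Among replicate 2 MSI libraries, the MSI free DNA group had a low tuft cell score (1.93 against 2.36 to 2.39), the CIN micronuclei group a high epithelial defence score (4.49 against 2.27 to 2.58), and the MSI micronuclei group a low T cell score (2.43 against 2.96 to 3.05). Among replicate 1 MSI libraries, the CIN micronuclei group was high in skeletal muscle (5.45 against -0.904 to -0.595) and in hypoxia and glycolysis genes (7.7 against 7.41 to 7.43). In that set the MSI micronuclei group was low in cytotoxic and natural killer genes (2.52 against 3.02 to 3.11). The CIN free DNA group was high in MHC class I genes (8.63 against 8.23 to 8.29) and low in mitochondrial messenger RNAs (6.91 against 7.1 to 7.12).

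In CIN tumours 1 library, the replicate 1 tumour of the MSI micronuclei group, accounted for 10 of the 12 others. Its scores were 2.18 for pan-epithelial genes, 0.807 for colonocytes, 0.906 for goblet cells, -2.2 for enteroendocrine cells, -0.16 for epithelial defence and 1.95 for smooth muscle. It scored 4.79 for fibroblasts and matrix, -1.08 for plasma cells, 4.17 for mitochondrial biogenesis and 1.7 for sex-linked genes, and all 10 were the lowest of the 8. The replicate 2 CIN library of the MSI micronuclei group was high in squamous genes (3.33 against 1.26 to 2.13), and that of the CIN micronuclei group in adipocyte genes (2.37 against -0.0642 to 1.01).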

How the results depend on the processing

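No paired analysis was possible with the replicate number as the block, because that number is the contrast; pairs were the 2 libraries of a treatment group, and dropping those pairs was an alternative. Of 460 alternative list medians 454 moved by less than 1 SD over the 4 pairs, and 19 values of 8 lists changed sign. The sign change beyond 1 SD was mitochondrial biogenesis as a mean over members (0.452). With 1 pair left out 7 lists changed sign: medians ran from -1.72 to 0.893 for skeletal muscle, -0.719 to 0.577 for mesothelium, -0.175 to 0.13 for squamous genes, -0.205 to 0.361 for neutrophils, -0.157 to 0.151 for dendritic cells, -0.147 to 0.0642 for type I interferon and -0.0614 to 0.118 for immediate early genes. Counts of edgeR calls in the MSI split describe the fit and test nothing, since the same values chose the sets. Against 2524 higher and 3388 lower genes, the count of higher genes was 4741 with DESeq2's test and 501 to 3595 when single libraries were left out, and that of lower genes was 2097 with no filter, 1732 with MSI libraries alone and 445 to 4182 when single libraries were left out. The share of calls that were higher thus depended on the tool. Genes lower in every pair by at least 2-fold numbered 406 to 1493 when single pairs were left out. In the CIN split DESeq2's test gave 254 higher and 179 lower, and no pairing 4 and 1.

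Of 551 alternative correlations 497 kept direction and side of the threshold, 29 lost it, 13 gained it and 12 reversed. With DESeq2 size factors and with totals alone, mitochondrial messenger RNAs gave r = 0.672 and 0.68, and oxidative phosphorylation 0.738 and 0.737, now past the threshold. With single CIN libraries left out, r ran from 0.547 to 0.811 for mitochondrial messenger RNAs, from 0.861 to 0.979 for smooth muscle and from -0.958 to -0.849 for mitosis. Reversals did not pass the threshold: eosinophils -0.00517 with upper-quartile factors and -0.116 to 0.0881 without single libraries, cytotoxic cells -0.0884 to 0.142, squamous genes -0.436 to 0.123, adipocytes -0.0843 to 0.53, neutrophils -0.646 to 0.569, MHC class I -0.0853 to 0.444 and interferon gamma targets -0.407 to 0.234. The cause was not tested. The effect of depth was not tested.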

Other observations

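The number of genes at least 2-fold apart within 1 pair varied between pairs of both tumour types. In MSI tumours it was 2168 higher and 575 lower in the MSI micronuclei pair, 4071 and 2702 in the CIN micronuclei pair, 3064 and 1397 in the MSI free DNA pair, and 3544 and 1996 in the CIN free DNA pair. In CIN tumours it was 3326 higher and 826 lower, 1540 and 463, 1368 and 1942, and 843 and 1346 in the same order of pairs. Single pairs have no replicate, so these are values with no test.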
